A study of Arabidopsis thaliana with 6 samples.

Results

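The major antenna of photosystem II in Arabidopsis thaliana is encoded by 9 nuclear genes, LHCB1.1 to LHCB1.5, LHCB2.1 to LHCB2.3 and LHCB3, taken here by locus from 32833 loci with counts summed over transcripts. Whole seedlings of the Columbia genotype were compared in 2 groups of 3 libraries each. The ethylene group germinated for 3 d in darkness with 0.7 ppm ethylene and then spent 5 d in light without the gas. The air group had the same 3 d of darkness without ethylene and the same 5 d of light. The comparison asks which antenna transcripts differ after those 5 d without the gas. No label says that replicates came from separate cultures, so a p-value here is set against a spread between libraries that may be technical.

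LHCB1, LHCB2 and LHCB3 are chlorophyll a/b-binding proteins of the thylakoid membrane. They assemble as trimers into light-harvesting complex II (LHCII), which passes absorbed energy to photosystem II and, when phosphorylated, in part to photosystem I. The proteins are made in the cytosol and imported into the chloroplast. Their genes are among the most strongly transcribed in green tissue and follow light, the state of the plastid and the circadian clock. LHCB1 is the most abundant of the 3 proteins, LHCB2 carries the phosphorylation site best known for state transitions, and LHCB3 lacks that site.

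LHCB1 genes form clusters, and 3 of them are neighbours on chromosome 1 of the RefSeq TAIR10.1 assembly, in the order LHCB1.2 (also CAB3, AT1G29910), LHCB1.1 (CAB2, AT1G29920) and LHCB1.3 (CAB1, AT1G29930), with 1153 and 1915 bases between them. Each has 1 exon and 804 coding bases. The proteins encoded by LHCB1.1 and LHCB1.2 are identical and that of LHCB1.3 differs from each of them in 1 residue. On the DNA, the coding sequences differ at 47 positions among the 3 genes. The first 90 coding bases are shown because they hold 9 of these positions and because reads from the coding sequence can be told apart only at such positions. Capitals mark the positions where the 3 genes are not all alike.
LHCB1.3, chr1:10478071-10478160, plus strand: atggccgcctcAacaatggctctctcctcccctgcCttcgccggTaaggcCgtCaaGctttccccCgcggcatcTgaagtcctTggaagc
LHCB1.1, chr1:10475803-10475892, minus strand: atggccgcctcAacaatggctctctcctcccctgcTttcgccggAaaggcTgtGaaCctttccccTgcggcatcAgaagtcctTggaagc
LHCB1.2, chr1:10473157-10473246, minus strand: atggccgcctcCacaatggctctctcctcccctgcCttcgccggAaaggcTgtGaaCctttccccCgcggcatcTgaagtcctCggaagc

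The count files give no coordinates and the sources used here do not name their genome build, so all positions are those of the RefSeq annotation of TAIR10.1, joined by locus. Over a window of 50 bases, 20.5% of the LHCB1.1 transcript, 10.6% of LHCB1.2 and 17.0% of LHCB1.3 matched another locus exactly. Over 100 bases the shares were 4.44%, 1.51% and 3.27%, and over 150 bases no window of these 3 genes was shared. LHCB1.4 (LHB1B1, AT2G34430) and LHCB1.5 (LHB1B2, AT2G34420) lie 1038 bases apart on chromosome 2 on opposite strands, with coding sequences 92.5% identical. LHCB2.1 (AT2G05100) and LHCB2.2 (AT2G05070) are 96.6% identical in coding sequence, and 9.87% of the LHCB2.1 and 12.4% of the LHCB2.2 windows of 100 bases were shared. LHCB2.3 (AT3G27690) and LHCB3 (AT5G54270) shared no window of 50 bases in this search. The search read loci other than these LHCB genes on their own strand only. It thus left out bases that LHCB1.3, LHCB2.3 and LHCB3 share with overlapping genes of the other strand, AT1G29940, AT3G27700 and AT5G54280. Windows came from the first annotated transcript, which for LHCB2.3 is AT3G27690.1, whereas its counts belong to AT3G27690.2. The sources used here give neither the read length nor the handling of reads that match several places, so values of single LHCB1 genes and of LHCB2.1 and LHCB2.2 are uncertain, whereas sums over a family do not depend on how reads were split within it, though they do on any reads dropped.

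LHCB transcripts, as far as they were counted, were a smaller part of plant counts in seedlings that had germinated in ethylene. The sum holds nothing of LHCB1.5, listed at 0 in all libraries, and almost nothing of LHCB2.3. The 9 genes together took 4.54%, 4.46% and 4.12% of plant counts in ethylene replicates 1 to 3, against 5.34%, 5.74% and 5.64% in air replicates 1 to 3. Each of these shares had a 95% Wilson interval of at most 0.0127 percentage points to either side, which covers counting error only. The ethylene libraries all lay below the air libraries. Plant counts ranged from 12870604 to 17116359 per library, so 1 count was worth between 0.0584 and 0.0777 CPM (counts scaled to a library of fixed size). On the TMM scale, which sets libraries to a common level by the bulk of their genes, the summed level was 41377 ± 2163.8 CPM in ethylene seedlings and 59064 ± 2435.8 CPM in air seedlings (SD, n = 3 each). The difference in mean log2 CPM was -0.51, given without a test because the sum runs over genes chosen as a set.

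LHCB1.3, LHCB1.1, LHCB2.2 and LHCB2.1 fell, whereas LHCB1.2, from the same cluster as the first pair, was not called. Of the 9 genes, 7 had enough counts for the test, and 4 were lower, 0 higher and 3 not called in edgeR's quasi-likelihood test at an adjusted p under 0.05, adjusted by Benjamini-Hochberg (BH) over the 17887 loci that passed the filter. DESeq2 gave 4 lower and 0 higher, and at an unadjusted p under 0.05 edgeR gave 5 lower and 0 higher. Over all those loci 32.6% were called, 16.8% lower and 15.8% higher. In 4 of the 9 genes, LHCB1.1, LHCB1.3, LHCB2.2 and LHCB3, every ethylene library lay below every air library, and in 0 above. Among all loci tested 23.8% had every ethylene library below and 23.9% above. The median log2 fold change was -0.38 over the 7 genes and 0.02 over all loci. Whole seedlings were extracted, so fewer green cells and less LHCB RNA per cell cannot be told apart. Of 12 root markers tested, 3 were higher and 0 lower, and the 13 listed summed to between 427.8 and 685.2 CPM in ethylene libraries, against between 130.3 and 366 CPM in air libraries. The 3 called were CASP2 of the endodermal barrier, the iron transporter gene IRT1 and the phosphate transporter gene PHT1;1. IRT1 was at 245.1 ± 88.4 CPM in ethylene and 91.6 ± 55.2 CPM in air. PHT1;1 was at 123.3 ± 28.3 CPM in ethylene and 44.1 ± 14.6 CPM in air. IRT1 and PHT1;1 thus made up a large part of the summed level in both groups. The count of root markers called higher was 11 of 12 with spike-in scaling, where 40% of all loci were higher. It was 7 with no filter on low counts, 6 with library size alone or with the replicate block, and 5 with DESeq2 or upper-quartile factors. Leaving out a library gave 1 without ethylene replicate 1, 9 without air replicate 2, and 5 without ethylene replicate 3 or air replicate 3. Of 5 markers of photosynthetic tissue, 0 were called in edgeR or DESeq2 and 1 was lower at an unadjusted p under 0.05 in edgeR, with summed levels between 8282 and 10162 CPM in ethylene and between 9870 and 10965 CPM in air, so that the groups overlapped. The lower one was RBCS1A, the Rubisco small subunit gene, at 8317 ± 945.8 CPM in ethylene and 9762 ± 533.7 CPM in air. It was called lower in edgeR with BH with no filter on low counts (adjusted p = 0.0496), without ethylene replicate 1 (-0.33 on the log2 scale, adjusted p = 0.0220) and without air replicate 2 (-0.29, adjusted p = 0.0477). RBCS1A made up most of the summed level in both groups, so the overlap of the sums is largely that of 1 gene. CA1 was at 11.5 ± 4.38 CPM in ethylene and 10.8 ± 0.33 CPM in air. RBCS3B was at 5.51 ± 0.42 CPM in ethylene and 6.20 ± 0.62 CPM in air. With spike-in scaling 1 of the 5 markers was called higher and 0 lower. The part of root tissue in the LHCB difference was not tested.

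**Figure D1:**
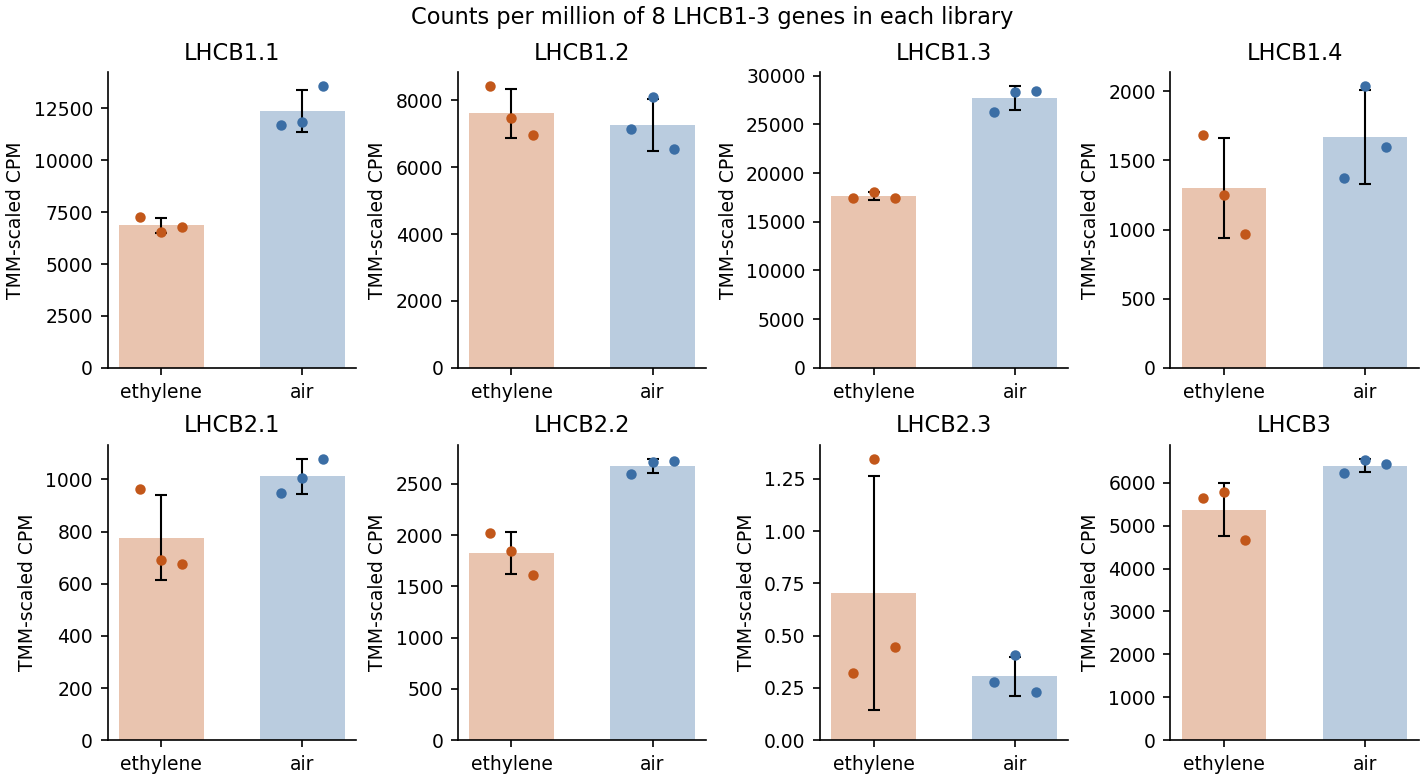
TMM-scaled CPM of the 8 LHCB genes that had any counts, 1 panel a gene, with a linear axis from 0 that differs between panels. Points are libraries, bars are means and error bars are SDs over 3 libraries, with ethylene on the left and air on the right. In LHCB1.1, LHCB1.3, LHCB2.2 and LHCB3 the 3 ethylene points lie below the 3 air points, and in the other panels they overlap.

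The calls depend on the scale, and so does the direction for LHCB1.4, LHCB2.1 and LHCB3. LHCB1.1, LHCB1.3, LHCB2.2 and the sums stayed below 0, but with spike-in scaling the sums did so by less than their spread. Spike-in RNAs, synthetic molecules added in an amount that the sources used here do not give, made up between 1.51% and 1.98% of counts in ethylene libraries and between 1.98% and 2.23% in air libraries. With library factors taken from the spike-ins, the median over all loci moved from 0.02 to 0.47 on the log2 scale, and 44.7% of loci were called, 4.63% lower and 40% higher. On that scale 0 LHCB genes were lower in edgeR (1 at an unadjusted p under 0.05) and 1, LHCB1.2, was higher, and the median of the 7 genes was 0.10. The sum of all 9 genes differed by -0.065 in mean log2 CPM, with an SD of 0.28 over ethylene and 0.055 over air libraries. For LHCB2 the difference was -0.062, with SDs of 0.39 and 0.074, and for LHCB1 -0.10, with SDs of 0.25 and 0.054. A change of library factors moves all loci by much the same amount, so a place relative to the median of all loci is kept by construction. The statements below are on the TMM scale unless they say otherwise.

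LHCB1.3 had the highest mean CPM, which is not per length, of all 17887 loci tested. It had 17396, 18088 and 17430 CPM in the ethylene libraries, against 26286, 28340 and 28432 CPM in the air libraries. No ethylene library came near the lowest air library. The log2 fold change was -0.65 ± 0.07 (SE, n = 3 per group; adjusted p = 0.000171, edgeR with BH), and -0.19 ± 0.19 with spike-in scaling, where it was not called.

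LHCB1.1, whose promoter drives the classic CAB2 luciferase reporter of clock studies, had the steepest fall of the 7 genes tested. Its levels were 7245, 6555 and 6768 CPM in ethylene and 11696, 11842 and 13551 CPM in air. The groups were well apart, and air replicate 3 was the highest library. The fold change on the log2 scale was -0.85 ± 0.09 (adjusted p = 8.99e-05, edgeR with BH). With spike-in scaling it was -0.39 ± 0.19 and not called (adjusted p = 0.0784, edgeR with BH).

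LHCB1.2, which encodes the same protein as LHCB1.1, was not called. It stood at 8412.5, 7456 and 6964 CPM in ethylene libraries and at 7136, 8088 and 6552 CPM in air libraries. The 2 groups overlapped. The log2 fold change was 0.07 ± 0.10 (adjusted p = 0.649, edgeR with BH), and it was -0.011 without ethylene replicate 1 and -0.015 without air replicate 3. With spike-in scaling LHCB1.2 was called higher, at 0.54 ± 0.19.

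LHCB1.4 lies apart from these 3 genes on chromosome 2 and was an order of magnitude less abundant than LHCB1.3. Its levels were 1681, 1252 and 964.4 CPM in ethylene and 1370, 2035 and 1596 CPM in air. The groups overlapped, since ethylene replicate 1 lay above both air replicates 1 and 3. The log2 fold change of -0.36 ± 0.19 was not called (adjusted p = 0.182, edgeR with BH), but without ethylene replicate 1 it was -0.59 and called (adjusted p = 0.0358).

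The shares of single genes in the LHCB1 counts do not depend on library scaling, though they do depend on how shared reads were assigned. LHCB1.2 made up 24.2%, 22.4% and 21.7% of LHCB1 counts in the ethylene libraries, against 15.4%, 16.1% and 13.1% in the air libraries. That is 22.8 ± 1.32% and 14.8 ± 1.57% (SD, n = 3 each), with every ethylene library above every air library. LHCB1.1 held 20.5 ± 0.76% in ethylene and 25.2 ± 1.75% in air, and LHCB1.3 52.9 ± 2.40% and 56.5 ± 0.19% in the same order. For these 3 genes the groups did not overlap. The exact two-sided permutation test gave p = 0.10 for each, the smallest value that 3 against 3 allows, or 0.167 with BH over the 5 shares tested. LHCB1.4 held 3.86 ± 0.92% in ethylene and 3.39 ± 0.58% in air (exact permutation p = 0.60).

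In ethylene seedlings LHCB1.2 had more counts than LHCB1.1 in every library, with ratios of 1.16, 1.14 and 1.03, whereas in air the ratios were 0.61, 0.68 and 0.48. Set against LHCB1.3, the LHCB1.2 ratio was 0.43 ± 0.05 in ethylene and 0.26 ± 0.03 in air (SD, n = 3 each). When LHCB1.1, LHCB1.2 and LHCB1.3 were summed, the level was 32105 ± 946 CPM in ethylene and 47308 ± 1901.3 CPM in air, a difference of -0.56 in mean log2 CPM. The whole LHCB1 family stood at 33404 ± 1305 CPM and 48975 ± 2155.7 CPM in the same 2 groups, a difference of -0.55.

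**Figure D2:**
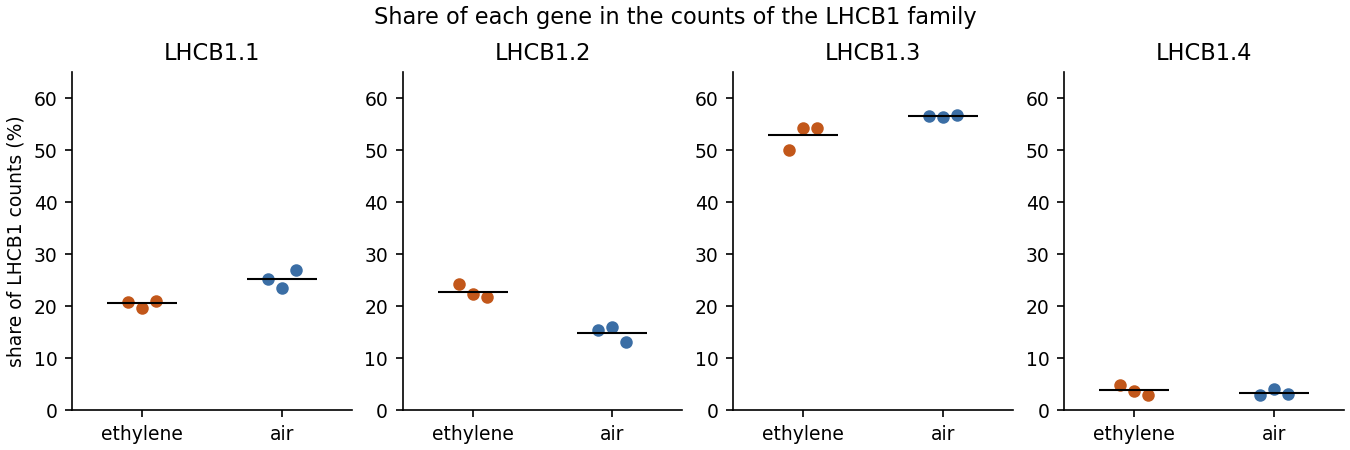
Share of each gene in the summed counts of the LHCB1 family, in percent, with 1 panel a gene and the same linear axis. Points are libraries and lines are means over 3 libraries, with ethylene on the left and air on the right. LHCB1.2 lies between 21.7% and 24.2% in ethylene and between 13.1% and 16.1% in air, while LHCB1.1 and LHCB1.3 are lower in ethylene and LHCB1.4 overlaps.

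The 250 bases before the annotated start of these 3 neighbours are shown because 2 of the genes were called lower and 1 was not. Capitals mark matches, on either strand, to 6 motifs searched: the G-box CACGTG, the I-box GATAAG, the GLK-type site CCAATC, the evening element AAAATATCT, and the CCA1 sites AAAAATCT and AACAATCT.
LHCB1.3, chr1:10477635-10477884, plus strand: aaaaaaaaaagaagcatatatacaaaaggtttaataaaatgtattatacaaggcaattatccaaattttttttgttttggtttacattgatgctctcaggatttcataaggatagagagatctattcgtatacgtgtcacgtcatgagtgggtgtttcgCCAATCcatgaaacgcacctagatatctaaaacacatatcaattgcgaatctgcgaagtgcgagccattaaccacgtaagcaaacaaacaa
LHCB1.1, chr1:10475970-10476219, minus strand: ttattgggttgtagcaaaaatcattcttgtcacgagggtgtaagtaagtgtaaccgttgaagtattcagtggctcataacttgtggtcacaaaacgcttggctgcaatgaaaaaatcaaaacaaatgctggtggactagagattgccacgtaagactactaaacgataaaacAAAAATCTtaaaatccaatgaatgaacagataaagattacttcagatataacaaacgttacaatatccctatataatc
LHCB1.2, chr1:10473503-10473752, minus strand: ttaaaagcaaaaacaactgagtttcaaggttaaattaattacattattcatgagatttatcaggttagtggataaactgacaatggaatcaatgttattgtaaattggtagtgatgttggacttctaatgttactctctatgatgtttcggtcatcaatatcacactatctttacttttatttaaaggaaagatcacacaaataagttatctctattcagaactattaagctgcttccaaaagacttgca

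The LHCB1.3 window holds CCAATC, the LHCB1.1 window AAAAATCT and the LHCB1.2 window none of the 6. Among 27443 promoters of protein-coding genes, CCAATC was found in 10.2%, AAAAATCT in 6.69%, CACGTG in 6.49%, GATAAG in 12.3%, AAAATATCT in 2.36% and AACAATCT in 1.83%. The windows are not aligned on the same point of the gene, because the annotated start lies 186 bases before the coding sequence in LHCB1.3, 77 in LHCB1.1 and 256 in LHCB1.2. A match is only a run of letters, and a missing one says nothing of a factor.

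Across the 9 promoters CCAATC was the commonest of the 6 motifs, in 5 genes, and the flanks of each match are shown for that reason with the 6 letters in capitals. The match lies between 53 and 91 bases before the annotated start. CCAATC contains the letters of the CCAAT box. CACGTG was found only in LHCB2.3, GATAAG only in LHCB2.1, and AAAAATCT in LHCB1.1 and LHCB1.4, while LHCB3 held none of the 6.
LHCB2.1, chr2:1824514-1824559, minus strand: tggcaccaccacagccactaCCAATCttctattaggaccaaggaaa
LHCB2.2, chr2:1800500-1800545, minus strand: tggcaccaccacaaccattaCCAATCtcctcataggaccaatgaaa
LHCB2.3, chr3:10255832-10255877, plus strand: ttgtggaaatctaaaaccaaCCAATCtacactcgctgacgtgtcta
LHCB1.3, chr1:10477774-10477819, plus strand: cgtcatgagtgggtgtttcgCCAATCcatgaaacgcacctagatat
LHCB1.5, chr2:14523632-14523677, minus strand: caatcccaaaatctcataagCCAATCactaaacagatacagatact

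Both LHCB2 genes that could be tested were called lower, LHCB2.2 clearly and LHCB2.1 only just. LHCB2.2 had 2018.5, 1850 and 1607 CPM in the ethylene libraries and 2594, 2713 and 2720.4 CPM in the air libraries, with no overlap. It fell by 0.55 ± 0.09 on the log2 scale (adjusted p = 0.00138, edgeR with BH), and was at -0.08 ± 0.19 with spike-in scaling, where it was not called.

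LHCB2.1 showed more spread. Its levels were 964.3, 690.2 and 674.9 CPM in ethylene and 948.6, 1006 and 1079.9 CPM in air, and ethylene replicate 1 lay above air replicate 1. The log2 fold change of -0.38 ± 0.13 was called only just (adjusted p = 0.0467, edgeR with BH). The call was lost without ethylene replicate 2 or 3 and without air replicate 1, 2 or 3 (adjusted p between 0.0581 and 0.166, edgeR with BH). Without ethylene replicate 1 the value was -0.57 (adjusted p = 0.00219). With spike-in scaling it was 0.10, so that its direction turned.

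The LHCB2 sum was 2602 ± 354.5 CPM in ethylene and 3688 ± 131.5 CPM in air, a difference of -0.51 in mean log2 CPM with no overlap. LHCB2.2 made up 70.3 ± 2.56% of LHCB2 counts in ethylene and 72.6 ± 0.88% in air, which overlapped (exact permutation p = 0.20). LHCB2.3 added almost nothing to the summed counts, with 5, 23 and 8 counts in ethylene libraries and 4, 5 and 3 in air libraries. It was too low for the test, and ethylene replicate 2 stood above the other libraries. The counted transcripts of LHCB2.1 and LHCB2.3 have only 284 and 35 exonic bases of their own when strand is ignored. The sum and the shares are therefore of counts and give no levels of these genes.

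LHCB3, the single gene of its kind, had the smallest log2 fold change of the 6 tested genes with a lower mean in ethylene, and was not called. It was at 5655, 5789 and 4670 CPM in ethylene and at 6222.5, 6536 and 6447 CPM in air. The groups did not overlap, and ethylene replicate 3 was the lowest. The log2 fold change was -0.25 ± 0.09 and was not called (adjusted p = 0.0590, edgeR with BH). With spike-in scaling it was 0.22 ± 0.19, also not called. In the summed counts of the 9 genes, LHCB3 made up 13.0 ± 0.97% in ethylene and 10.8 ± 0.20% in air, LHCB1 80.8 ± 1.25% and 82.9 ± 0.24%, and LHCB2 6.27 ± 0.54% and 6.25 ± 0.09%, in the same order of groups (SD, n = 3 each, no test). These are shares of counts and not of levels. Most or all exonic bases of LHCB1.5, LHCB2.1 and LHCB2.3 overlap other annotated transcripts when strand is ignored.

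**Figure D3:**
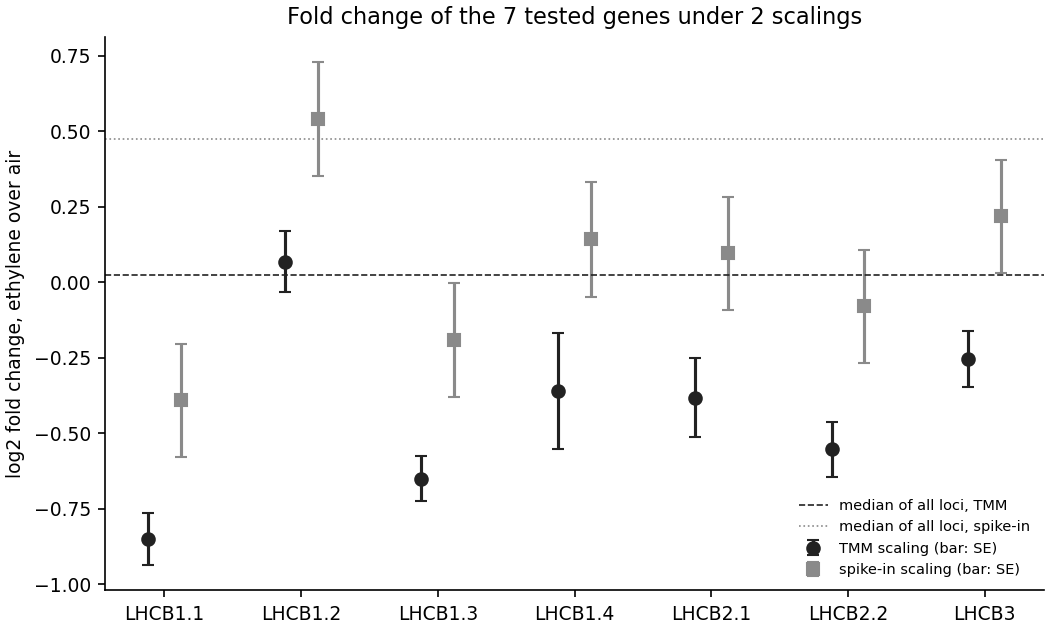
Log2 fold change, ethylene over air, of the 7 LHCB genes tested, as black circles with TMM scaling and grey squares with spike-in scaling, with error bars for the SE. The dashed and dotted lines mark the median of all 17887 loci on each scale, 0.02 and 0.47. LHCB1.2 lies near those lines and the other 6 genes lie below them on both scales.

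Levels can be ranked between genes only per length, and were ranked only where most of a transcript overlaps no other annotated one. For 6 genes at least 80% of the exonic bases belong to no other annotated transcript on either strand. That is by position only, and sequence shared with LHCB genes elsewhere still counts as own. Of windows of 50 bases, LHCB2.2 shared 28.2%, LHCB1.1 20.5%, LHCB1.3 17.0%, LHCB1.4 13.7%, LHCB1.2 10.6% and LHCB3 0%. The order below may thus depend on how shared reads were assigned or dropped, which was not tested. In CPM per kilobase of such bases, ethylene seedlings had 15720 ± 347.7 for LHCB1.3, 6223 ± 602.3 for LHCB1.2, 5218 ± 268.9 for LHCB1.1, 5086 ± 578.8 for LHCB3, 1597 ± 181.2 for LHCB2.2 and 990.1 ± 274.9 for LHCB1.4 (SD, n = 3). The ranges of LHCB1.1 and LHCB3 overlapped, and every other pair of neighbours in that order was apart. Air seedlings had 24676 ± 1081.5 for LHCB1.3, 9409 ± 785.2 for LHCB1.1, 6062 ± 152.9 for LHCB3, 5935 ± 633.9 for LHCB1.2, 2341 ± 61.8 for LHCB2.2 and 1270.5 ± 257.8 for LHCB1.4. There LHCB3 and LHCB1.2 overlapped, and every other pair of neighbours was apart. LHCB1.2 thus ranked above LHCB1.1 in ethylene and below it in air. Per kilobase of the whole spliced transcript, LHCB3 was at 4325 ± 492.1 in ethylene and 5154 ± 130 in air and lay below LHCB1.2 in both groups without overlap.

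In the remaining 3 genes at most 20.2% of the exonic bases of any transcript are its own when strand is ignored. LHCB1.5 is listed at 0 in all 6 libraries. In the RefSeq annotation its single exon, chr2:14522524-14523568 on the minus strand, is covered along its whole length by transcripts of the plus strand, those of AT2G08665, a noncoding antisense gene, and of AT2G34410. The transcript thus has 0 exonic bases of its own when strand is ignored and 1045 when it is not. The antisense locus had 10, 27 and 20 counts in ethylene libraries and 34, 16 and 31 in air libraries. Of 300 single-transcript protein-coding loci that have no base of their own on either strand together but at least 100 on their own strand, 288 (96.0%) are listed at 0 in all libraries. Among 16153 single-transcript loci with at least 100 bases of their own the number is 3185 (19.7%). Whether counting used strand is not given in the sources used here, and no level of LHCB1.5 is given.

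The 2 LHCB2 genes with several annotated transcripts show the same pattern within a locus. For LHCB2.1 all counts belong to transcript AT2G05100.1, which has 284 exonic bases of its own (20.2% of its length), and AT2G05100.2, which has 0, is listed at 0. For LHCB2.3 the transcript AT3G27690.1 has 0 bases of its own and is listed at 0, and AT3G27690.2 has 35 (2.39%) and holds all of the few counts. Part of that gene is also overlapped by AT3G27700 on the other strand. The levels of LHCB2.1 and LHCB2.3 cannot be set against those of the other genes. When strand is ignored, 91.2% and 85.0% of the exonic bases of LHCB1.3 and LHCB3 are their own, and LHCB1.1, LHCB1.2, LHCB1.4 and LHCB2.2 have 100%.

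**Figure D4:**
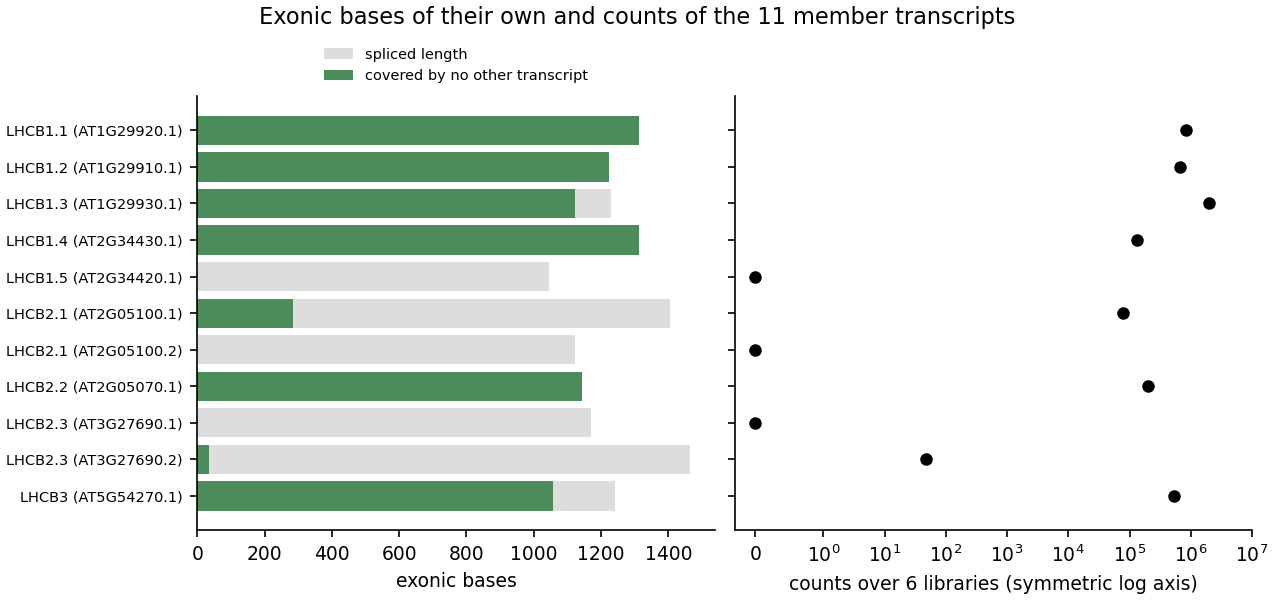
Exonic bases (left) and counts summed over the 6 libraries on a symmetric log axis (right) of the 11 annotated transcripts of the LHCB genes. Grey bars give the spliced length and green bars the bases covered by no other annotated transcript on either strand. The 3 transcripts with 0 such bases are listed at 0, and the 1 with 35 holds a few counts.

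In the authors' deposited table of ethylene against air per transcript, LHCB1.1 has a log2 fold change of -0.85, LHCB1.3 of -0.65, LHCB2.2 of -0.55, LHCB2.1 of -0.38, LHCB1.4 of -0.36, LHCB3 of -0.25 and LHCB1.2 of 0.07. Adjusted p-values in the authors' deposited table are 8.25e-15, 8.99e-12, 5.4e-06, 0.0275, 0.130, 0.0644 and 0.708 for these genes. Values for LHCB1.5 and LHCB2.3 are not given here.

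Other antenna genes were lower as well. Over all loci 16.8% were called lower and 15.8% higher. Of 6 minor antenna genes of photosystem II, which link the trimers to the reaction centre, 5 fell and 0 rose, with a median log2 fold change of -0.55. LHCB4.1 was at 3548 ± 175.8 CPM in ethylene and 5820 ± 362.2 CPM in air, with a log2 fold change of -0.71 ± 0.08. LHCB5, the one with the highest CPM, was at -0.55 ± 0.09 and LHCB7 at -0.70 ± 0.11. The gene of this list that was not called, LHCB4.3, had a log2 fold change of 0.07. All 6 photosystem I antenna genes fell, with a median of -0.60. Fold changes on the log2 scale were -0.82 ± 0.08 for LHCA3, -0.81 ± 0.09 for LHCA2 and -0.63 ± 0.09 for LHCA4, the one with the highest CPM. Without 1 library at a time, 5 or 6 of these genes were lower. With spike-in scaling 0 of these 12 antenna genes were lower in edgeR (1 at an unadjusted p under 0.05) and 1, LHCB4.3, was higher. On that scale 4.63% of all loci were lower and 40% higher. PSBS, which encodes the sensor protein for dissipation of excess light, was at 210.8 ± 30.6 CPM in ethylene and 209.9 ± 8.16 CPM in air and was not called.

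Genes that act on the LHCII proteins gave small counts, to be read against the 16.8% of all loci called lower and the 15.8% called higher. In import and membrane insertion, 3 of 6 fell and 1 rose, with a median of -0.39, and the single higher call is near that share. On the log2 scale the fold change was -0.43 ± 0.08 for CPSRP43, a subunit of the chloroplast signal recognition particle, and -0.46 ± 0.09 for LTD, which guides LHCII proteins to it. For the insertase gene ALB3 it was -0.96 ± 0.21, with 4.33 ± 0.62 CPM in ethylene and 8.45 ± 1.49 CPM in air. The gene that rose was CPFTSY, the receptor of that particle, with a log2 fold change of 0.26 ± 0.08 (adjusted p = 0.0255, edgeR with BH). It is named after its value was seen, as the only gene of this list called higher, a call lost without any 1 of ethylene replicates 1, 2 and 3 and air replicates 1 and 2. In LHCII phosphorylation, 1 of 4 fell and 0 rose, with a median of -0.39, a count near the share over all loci. That gene was STN7, the kinase of state transitions, at 205.6 ± 5.31 CPM in ethylene and 331.5 ± 27.1 CPM in air, with a log2 fold change of -0.69 ± 0.08.

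For each list given here with 0 genes higher, DESeq2 and edgeR at an unadjusted p under 0.05 also gave 0 higher.

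Chlorophyll b is needed for stable LHCII. Of 5 genes tested for its synthesis or for chlorophyll breakdown, 2 fell and 0 rose, against 16.8% of all loci lower, and in several settings 1 fell. NYC1, a chlorophyll b reductase gene, had 14.2 ± 2.60 CPM in ethylene and 93.2 ± 24.1 CPM in air and fell by 2.71 ± 0.19 (adjusted p = 1.6e-05, edgeR with BH). This was the largest fall in the 7 lists and the only one still called with spike-in scaling, at -2.29. CAO, chlorophyllide a oxygenase, fell by 0.44 ± 0.13, a call lost with library size alone, with spike-in scaling and without ethylene replicate 2 or 3 or air replicate 3.

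Among 11 regulators of LHCB transcription, 7 could be tested, of which 2 fell and 1 rose. These counts are near the 16.8% lower and 15.8% higher over all loci. GUN5, a subunit of magnesium chelatase, was at 212.5 ± 3.91 CPM in ethylene and 364 ± 43.0 CPM in air and fell by 0.78 ± 0.09. GUN4, its activator, fell by 0.53 ± 0.15, a call lost with library size alone, with spike-in scaling and without ethylene replicate 2 or 3 or air replicate 3. CCA1, a clock transcription factor first described as binding the LHCB1.3 promoter, was at 9.33 ± 1.16 CPM in ethylene and 6.41 ± 0.97 CPM in air, with a log2 fold change of 0.54 ± 0.18 (adjusted p = 0.0469, edgeR with BH). The CCA1 call was lost in DESeq2 (adjusted p = 0.0558), without the filter on low counts, with the replicate block (edgeR adjusted p = 0.0806 with BH) and without ethylene replicate 2 or 3 or air replicate 1, 2 or 3. GLK1 and GLK2, activators of antenna genes given here for the motif searched above, had log2 fold changes of 0.19 and -0.18 and were not called. Several of these loci have few counts and several annotated transcripts, so their levels cannot be set against those of the LHCB genes.

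**Figure D5:**
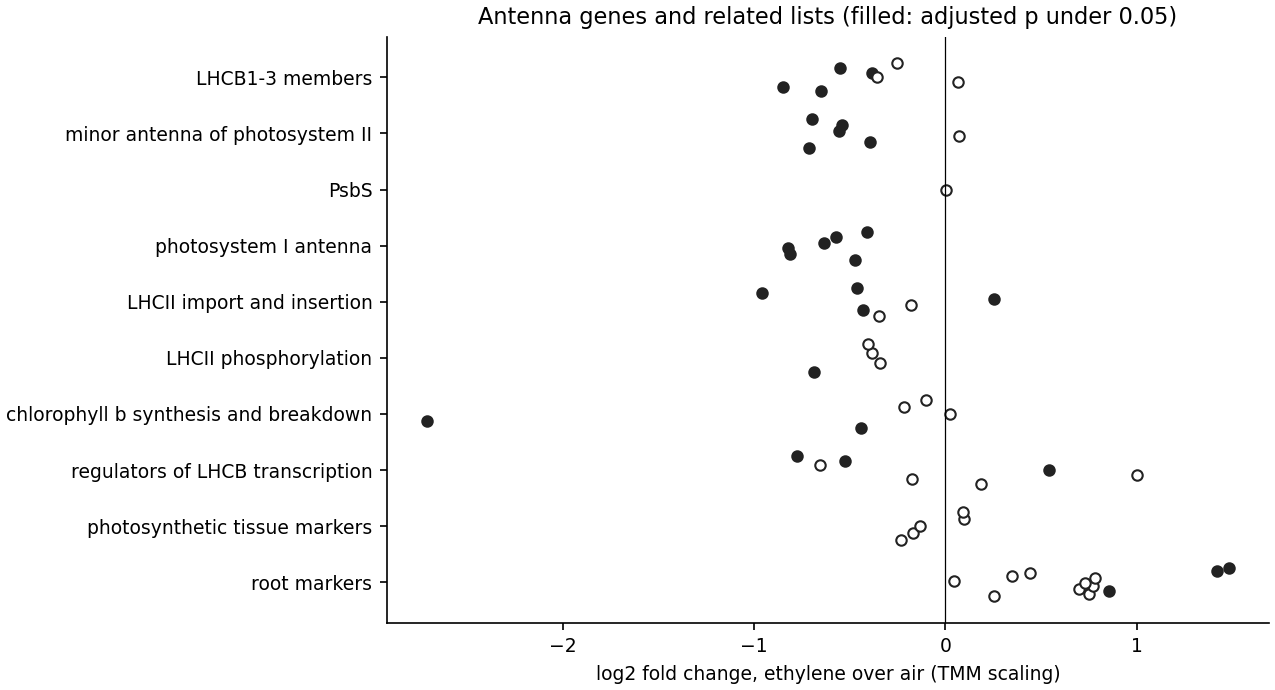
Log2 fold change, ethylene over air on the TMM scale, of the LHCB genes and of each gene tested in the 7 related lists and the 2 marker lists, 1 row a list. Filled points have an adjusted p under 0.05 in edgeR and open points do not. The filled antenna points lie between -0.38 and -0.85, NYC1 lies at -2.71, and the root markers lie above 0.

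The genes most like the LHCB sum across the 6 libraries were sought among 3801 other loci with a mean of at least 50 CPM, by Pearson's r of log2 CPM. The 5 highest were AT5G42250, annotated as a zinc-binding alcohol dehydrogenase (r = 0.999), AT2G27290, annotated as a FAM210B-like protein (0.998), PSAE-2 of photosystem I (0.998), RAB7B, a small GTPase gene (0.998), and AT5G44020, annotated as an acid phosphatase (0.997). Their log2 fold changes were -1.15, -0.89, -0.46, -0.55 and -0.68. With 6 libraries in 2 groups these values mainly follow the difference between the groups and the shared library factors. Of the LHCB genes themselves, LHCB2.2 (0.985), LHCB1.3 (0.985) and LHCB1.1 (0.980) followed the sum most closely and LHCB1.2 did not (-0.16). Each of these genes is part of the sum, LHCB1.3 the largest, so their values in part compare a gene with itself.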

How the data were processed

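Trizol RNA was enriched for messenger RNA, fragmented, copied from random primers and sequenced after adaptor ligation and PCR, per the labels' protocols. The authors deposited raw read counts per transcript for 6 libraries, covering 54013 plant transcripts and 92 spike-in RNAs. The aligner, counter, build and use of strand are not given in the sources used here. Their deposited comparison table holds log2 fold changes and p-values, per the file headers; its per-sample columns and those of the list of significant transcripts, 12 in all, were not used.

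Counts were summed to 32833 loci, and 325 lower-case identifiers were joined to their locus. Plant counts were 12870604 to 17116359 per library. edgeR 4.0.16 (R 4.3.3) was run with TMM factors, filterByExpr (minimum count 10, minimum total 15), the group alone as design and Benjamini-Hochberg adjustment. Each SE is the absolute log2 fold change over the square root of F. DESeq2 1.42.0 was an alternative. Only the edgeR fit with TMM was tested on simulated data, with the same dispersion for all loci, and the other steps were not. Replicate pairs differed beyond sampling noise (chi-square per degree of freedom 5.01 to 26.6). Log2 CPM used a prior count of 2. Exact tests used SciPy 1.17.1 and alignments Biopython 1.88. Of the plant transcripts, 53219 matched RefSeq TAIR10.1 by identifier. The members, lists, motifs and alternatives, spike-in scaling included, were chosen with earlier results of these data known. Named beside the 9 members are, from each list, up to 3 called genes with the smallest p and the gene with the highest mean CPM, with the 5 loci most like the summed members.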

Additional observations from a re-analysis of the deposited data

How the results depend on the processing

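Spike-in scaling changed the most. It gave 829 loci lower and 7160 higher, against 3007 and 2828 with TMM, and left 0 LHCB genes lower and 1 higher, with 1 lower and 6 higher of the 40 genes in the 7 lists, against 19 and 2. Log2 fold changes became -0.19 for LHCB1.3, -0.39 for LHCB1.1 and -0.080 for LHCB2.2, all no longer called, 0.54 for LHCB1.2, now called, and 0.14 for LHCB1.4, 0.10 for LHCB2.1 and 0.22 for LHCB3, all with the sign turned. The sums became -0.10 for LHCB1, -0.062 for LHCB2, -0.11 for LHCB1.1 to LHCB1.3 and -0.065 for all 9 genes. CPSRP43, CAO and RBCS1A turned to 0.029, 0.017 and 0.23. With library size alone 4478 loci were higher, LHCB2.1 was at -0.22 and not called, and the sums were -0.39 for LHCB1, -0.40 for LHCB1.1 to LHCB1.3 and -0.35 for all 9. A filter at a mean CPM of at least 5 left LHCB2.1 at -0.36 and not called, and no filter made LHCB3 called at -0.25. Of the list genes, 1 was higher with DESeq2, 1 with no filter and 1 with the replicate block. With the LHCB1.1 to LHCB1.3 loci merged into 1 feature the value was -0.56, a sign opposite to that of LHCB1.2 alone. The causes were not tested.

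Leaving out 1 library at a time gave 2383 to 3058 loci lower and 1978 to 2845 higher, 3 to 5 LHCB genes lower and 0 higher, and 16 to 20 list genes lower and 0 to 1 higher. Log2 fold changes ran from -0.71 to -0.64 for LHCB1.3, -0.91 to -0.79 for LHCB1.1, -0.015 to 0.13 for LHCB1.2, -0.59 to -0.19 for LHCB1.4, -0.57 to -0.29 for LHCB2.1, -0.63 to -0.47 for LHCB2.2 and -0.31 to -0.17 for LHCB3. The LHCB1.2 share of LHCB1 stayed 7.04 to 8.54 points higher, that of LHCB1.4 ran from -0.014 to 0.90 points, and PSBS ran from -0.12 to 0.071, turning to -0.12, -0.048 and -0.0014 without ethylene replicate 1, air replicate 2 and air replicate 3, and to -0.0027 with the replicate block. Of 12 root markers tested, 1 to 9 were higher.

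Same-numbered libraries did not deviate together (correlations of 0.024, -0.058 and 0.12), so the numbers were not taken as pairs. With the replicate block 4 LHCB genes were lower and 0 higher, 2807 loci lower and 2767 higher, and LHCB2.1 was at -0.40 (edgeR adjusted p = 0.0454 with BH). Depth did not limit the 7 tested genes, each with at least 11785 counts per library.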
